A study of Mus musculus with 6 samples.

Results

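The day 7 library was compared with the sham library of the same series, gene by gene. Photothrombosis was made in male C57BL/6J mice aged 6 to 8 weeks by injecting Rose Bengal, a dye that damages vessel walls when lit, and illuminating the skull over the sensorimotor cortex with cold light. Sham mice went through the same procedure without the light, and both groups were sampled at day 7, so sham and day 7 are the only pair matched in time after surgery. The RNA came from the whole ipsilateral cortex, stroke core and surrounding tissue together, and RNA of 3 mice was pooled into 1 library per group. No agent, allele or transgene separated the mice other than the illumination, and with 1 library per group no test, error or p-value could be given. Genes were compared when they reached at least 1 FPKM, a count of fragments scaled to transcript length and library size, in either library. This held for 12069 of the 15441 genes that had a value in any of the 6 libraries.

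At the end of the first week after a cortical infarct, dead tissue is cleared by phagocytes, which are resident microglia and macrophages that enter from blood and meninges. Dying cells release damage-associated molecules that receptors on these phagocytes recognise, and the engulfed material is broken down in lysosomes, with its lipids stored or exported. Astrocytes at the border thicken their intermediate filaments, and fibroblasts lay down collagen in the core.

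A gene was called higher or lower when the log2 ratio of day 7 to sham, with 0.1 FPKM added to both, reached 1 or -1. By that rule 1030 genes (8.53% of those compared) were higher at day 7 and 256 (2.12%) were lower, while 10783 (89.3%) lay between. The median log2 ratio of all compared genes was 0.03, and the quartiles were -0.18 and 0.34. Large differences lay mostly on the higher side, where 418 genes reached a log2 ratio of 2 and 133 reached 4, against 73 and 26 on the lower side. Genes called higher were mostly weak in sham, since 562 of the 1030 (54.6%) were under 1 FPKM there and 192 were not listed at all. Only 3 of the 400 genes that reached 100 FPKM in sham were called higher, and 4 were called lower. Together the higher genes made up 1.42% of the summed FPKM of the sham library and 5.65% at day 7. Among the 4586 genes at 10 FPKM or more in both libraries, 4111 (89.6%) had log2 ratios within 0.5 of zero. The values nearest the thresholds were those of Card19 at 1.0003 and Serpinb1a at 0.9998 on the higher side, and of Myh3 at -1.0032 and Rdh11 at -0.9984 on the lower side.

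**Figure D1:**
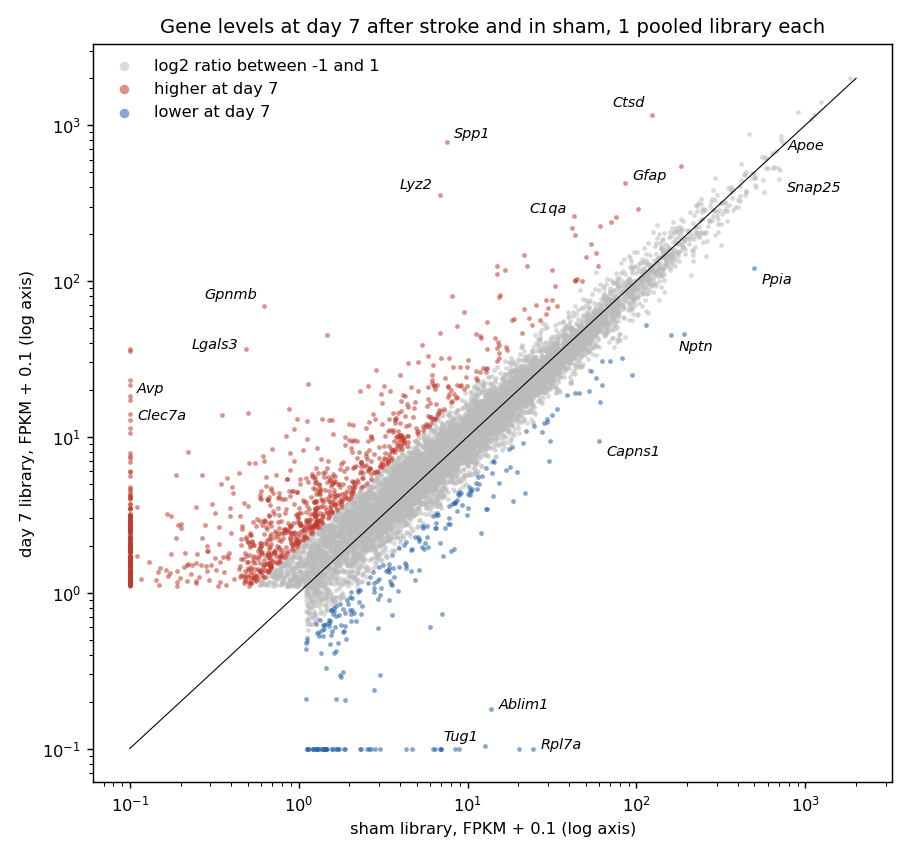
Each point is 1 of the 12069 genes compared, placed by its FPKM plus 0.1 in the sham library (horizontal, log axis) and in the day 7 library (vertical, log axis), and the line marks equal values. The 1030 red genes spread far above the line, with Spp1 at 783 FPKM from 7.42 and Lyz2 at 357 FPKM from 6.73, while the 256 blue genes lie closer to it, apart from Tug1, Ablim1 and genes not listed at day 7, which lie at the bottom edge.

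Many of the genes with the largest ratios are known from phagocytes. Gpnmb, a lysosome-associated membrane glycoprotein of lipid-laden macrophages on chr6:49036546-49070929 of GRCm38, was at 0.528 FPKM in sham and at 68.9 FPKM at day 7, a log2 ratio of 6.78. Spp1, which encodes the secreted matrix phosphoprotein osteopontin, was at 7.42 FPKM in sham and 783 FPKM at day 7 (log2 ratio 6.70). Lgals3, the gene of galectin-3, was at 0.386 and 36.7 FPKM (6.24). Lyz2, the macrophage lysozyme, was at 6.73 FPKM in sham and 357 FPKM at day 7 (5.71). Plin2, which coats lipid droplets, was at 1.37 and 44.7 FPKM (4.93). Cst7, an inhibitor of lysosomal cysteine proteases, was at 0.403 and 14.0 FPKM (4.81). These 6 genes therefore include secreted, lysosomal and lipid droplet proteins. Others among the 20 largest ratios were Fyb, a leukocyte signalling adaptor (0.0873 and 5.56 FPKM), the inhibitory receptor Lilrb4a (0.170 and 5.59 FPKM), Pou2f2, a transcription factor of B cells and monocytes (0.0761 and 2.99 FPKM), and Rac2, a GTPase of the phagocyte oxidase (0.247 and 4.85 FPKM). Sbno2 (0.145 and 3.46 FPKM), the cell cycle inhibitor Cdkn2d (0.777 and 15.05 FPKM) and the heat shock protein gene Hspa2 (0.000178 and 2.14 FPKM) completed this set together with genes given below by their groups. As these are bulk samples, more cells of a type and more RNA per cell cannot be told apart in any of these values.

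The 10 largest positive differences in FPKM itself included Spp1 and Lyz2, weak in sham, and genes that were already strong there. Ctsd, which encodes the lysosomal protease cathepsin D, had the largest difference of all, with 124 FPKM in sham and 1169 FPKM at day 7, which was 1046 FPKM more. These values were those of its end events, and its largest event that was neither a start nor an end was at 122 and 1166 FPKM. Its start events were weak, with sums of 5.73 and 7.23 FPKM. The log2 ratio was 0.33 with start events alone and 0.01 with events assigned by position, both short of the threshold. Tmsb4x, the actin-sequestering thymosin, was at 465 and 875 FPKM, a log2 ratio of 0.91 that stayed short of the threshold. Ftl1, the ferritin light chain, was at 183 and 543 FPKM (1.57). Gfap, the intermediate filament of astrocytes, was at 85.8 and 422 FPKM (2.30). C1qa was at 42.5 and 259 FPKM (2.61), Ctsb at 102 and 288 FPKM (1.49) and Sparc, a collagen-binding matrix protein, at 75.9 and 256 FPKM (1.75). The elongation factor gene Eef1a1 was at 906 and 1214 FPKM, a log2 ratio of 0.42.

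The disease-associated microglia genes, a set that microglia switch on around plaques, dying cells and debris, were high almost as a whole. Of 22 genes in the list, 20 had a value and all 20 were compared, of which 17 were higher and 0 lower, with a median log2 ratio of 2.74. Clec7a, the beta-glucan receptor dectin-1, was not listed in sham and was at 12.6 FPKM at day 7. Itgax, the integrin CD11c, was also not listed in sham and was at 1.90 FPKM. Trem2, a lipid-sensing receptor, was at 9.49 FPKM in sham and 63.2 FPKM at day 7, a log2 ratio of 2.72, and its signalling partner Tyrobp was at 21.5 and 146 FPKM (2.76), so the receptor and its adaptor were higher by about the same factor. Cd68 was at 4.32 and 29.8 FPKM (2.76), Lpl at 5.73 and 32.9 FPKM (2.50) and Igf1, the growth factor, at 0.833 and 11.2 FPKM (3.59). The 3 members short of the threshold were Fabp5 (0.66), Axl (0.48) and Apoe, which was at 716 FPKM in sham and 855 FPKM at day 7, a log2 ratio of 0.25. Apoe, the lipid carrier, was thus abundant in both libraries.

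Genes that mark resting microglia did not share this size of difference. Of the 13 compared, 4 were higher and none lower, with a median of 0.70. Fcrls was at 15.2 FPKM in sham and 78.5 FPKM at day 7 (2.36) and Csf1r, the receptor that keeps microglia alive, at 23.9 and 52.3 FPKM (1.12). P2ry12, the purinergic receptor of microglial processes, was at 18.0 FPKM in sham and 17.7 FPKM at day 7, and Siglech was at 7.01 and 4.22 FPKM (-0.72). Tmem119 and Cx3cr1, which usually define microglia, did not reach 1 FPKM in either library and were not compared.

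Of the genes of infiltrating and border macrophages, 10 of 11 compared were higher, with a median of 3.49. That median was 2.54 over members listed in both libraries, beside 2.61 for disease-associated microglia, and 3 members not listed in sham depend on the 0.1 FPKM added. Cd5l, a secreted scavenger protein of macrophages, was not listed in sham and was at 13.9 FPKM at day 7. Msr1, a scavenger receptor, was not listed in sham and was at 4.02 FPKM. Mrc1, the mannose receptor of border macrophages, was at 1.30 FPKM in sham and 2.54 FPKM at day 7 and stayed short of the threshold with 0.91. The other 7 of the 18 genes with a value, among them Ccr2, Lyve1 and Cd163, were under 1 FPKM in both libraries. Few neutrophil and lymphocyte genes reached 1 FPKM. A gene that is not listed in these event tables need not be unexpressed, since some genes used by every cell, such as Hnrnpa3, are missing from some of the libraries. Of 13 neutrophil genes only Csf3r was compared, with 1.30 and 5.74 FPKM, and S100a8 and Mmp8 were under 1 FPKM in both libraries. Of 18 lymphocyte genes, Cd4 (2.56 and 2.78 FPKM) and Trbc2 (11.4 and 5.46 FPKM, log2 ratio -1.05) were compared, Cd3e was not listed in either library, and Cd8a had no value in any.

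PU.1 is the transcription factor that defines macrophages and microglia, and its usual binding letters, GAGGAAGT, were searched on both strands of the 250 bases before each RefSeq start. Of the genes compared, 9302 had a RefSeq promoter (build GRCm38.p6), and 2.73% of these held the letters, against 4.34% of the 783 higher genes and 3.31% of the 181 lower genes with a promoter. In the list of Fc receptors and the kinases that act with them, 3 of 9 did, Fcgr4, Vav1 and Inpp5d. All 3 holders in that list were higher (median 2.18), and so were all 6 others (median 2.23). The letters were held by 0 of 9 resting microglia genes with a promoter and by 1 of 15 disease-associated microglia genes, Spp1. Vav1 and Fcgr4 are shown with Spp1 because the strongest day 7 start event lay within 7 bases of the RefSeq start in each of them. Capitals mark the motif on either strand, and the sequences run 5′ to 3′ on the strand of the gene.
Vav1, chr17:57278850-57279099 of GRCm38.p6, plus strand: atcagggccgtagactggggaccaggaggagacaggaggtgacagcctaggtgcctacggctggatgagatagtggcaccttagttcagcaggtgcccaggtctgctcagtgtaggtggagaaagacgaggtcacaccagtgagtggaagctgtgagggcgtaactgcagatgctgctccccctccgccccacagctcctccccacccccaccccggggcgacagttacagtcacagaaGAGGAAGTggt
Fcgr4, chr1:171018676-171018925 of GRCm38.p6, plus strand: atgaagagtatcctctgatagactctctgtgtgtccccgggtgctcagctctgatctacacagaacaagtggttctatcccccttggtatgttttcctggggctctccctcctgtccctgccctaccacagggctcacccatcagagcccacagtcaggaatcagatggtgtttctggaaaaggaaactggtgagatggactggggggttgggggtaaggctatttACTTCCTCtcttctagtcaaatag
Spp1, chr5:104434861-104435110 of GRCm38.p6, plus strand: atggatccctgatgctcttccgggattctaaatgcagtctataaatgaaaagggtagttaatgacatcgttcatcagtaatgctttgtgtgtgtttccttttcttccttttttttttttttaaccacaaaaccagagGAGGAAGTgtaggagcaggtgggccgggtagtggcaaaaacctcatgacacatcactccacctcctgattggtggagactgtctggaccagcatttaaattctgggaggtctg
In Vav1, a guanine nucleotide exchange factor of leukocytes, the motif began 11 bases before the RefSeq start, and the start events within 200 bases of that start summed to 0.475 FPKM in sham and 5.32 FPKM at day 7. In Fcgr4, an activating Fc receptor, it began 24 bases before the start, where no start event was listed in sham and 3.01 FPKM at day 7. In Spp1 it began 113 bases before the start, and the start events there summed to 6.45 FPKM in sham and 781 FPKM at day 7. A match of letters is a description of the sequence and not evidence of binding.

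All Fc receptor signalling genes that were compared, 11 of 11, were higher, with a median of 2.07, and the twelfth, Fgr, was under 1 FPKM. Fcer1g, the shared signalling chain, was at 8.60 FPKM in sham and 51.2 FPKM at day 7 (2.56). The inhibitory receptor Fcgr2b was at 1.41 and 12.6 FPKM (3.08) and the activating receptors Fcgr1 and Fcgr3 were at 1.25 and 7.09 FPKM (2.41) and at 7.69 and 32.0 FPKM (2.04), so activating and inhibitory receptors were both higher. Syk, the kinase that these receptors recruit, was at 1.01 and 2.59 FPKM (1.27), and the phosphatase Inpp5d, which opposes it, was at 3.53 and 10.7 FPKM (1.58). The phagocyte NADPH oxidase, which produces superoxide in the phagosome, was likewise higher in 6 of 6 compared genes, with a median of 2.73. Its membrane subunit Cybb was not listed in sham and was at 2.33 FPKM at day 7, and its cytosolic subunit Ncf1 was at 1.98 and 11.9 FPKM (2.52). Leukocyte integrins and scaffold proteins were higher in 13 of 18, among them Itgb2 with 1.47 and 12.8 FPKM (3.04) and Cd53 with 4.55 and 20.6 FPKM (2.16).

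**Figure D2:**
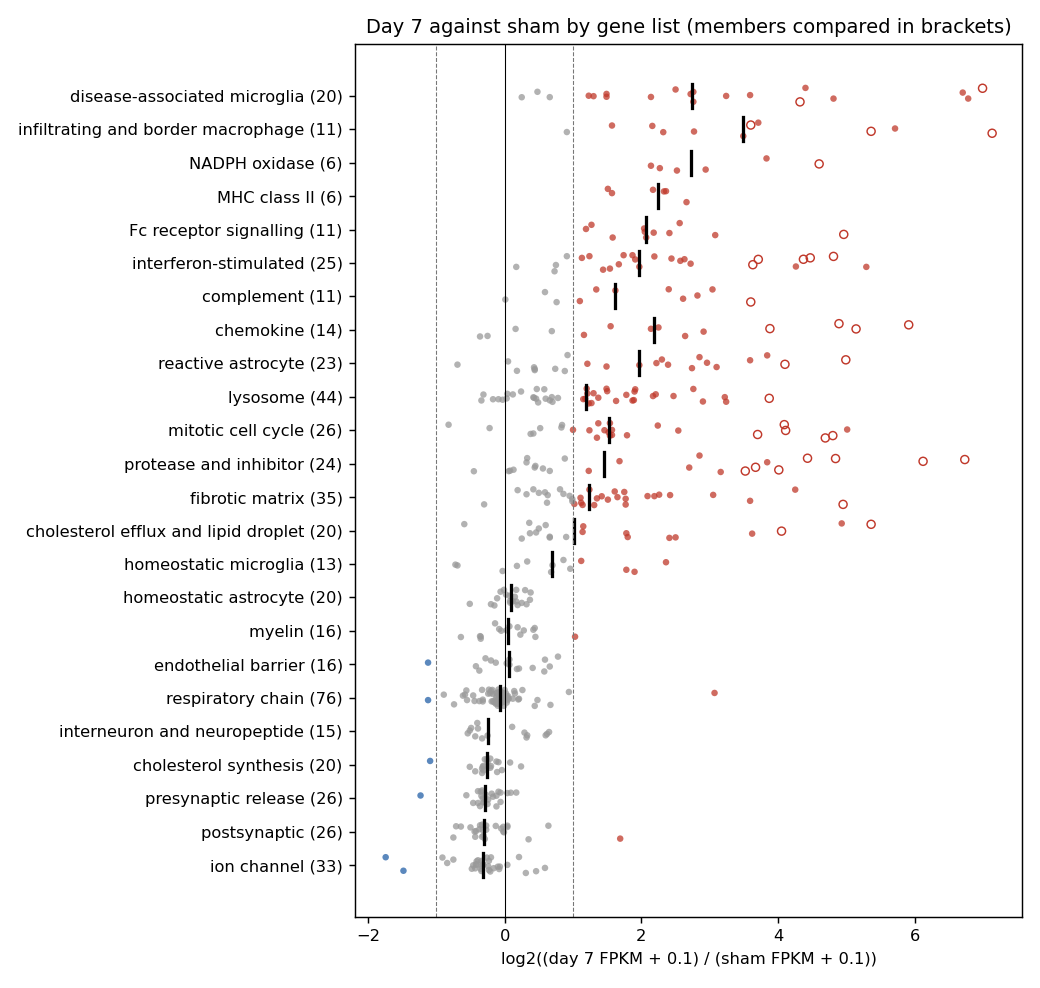
Each point is a gene of the list named on the left, placed by its log2 ratio of day 7 to sham, with the number of members compared in brackets, the median of the list as a black bar and dashed lines at -1 and 1. Open circles are genes not listed in sham, whose position depends on the 0.1 FPKM added. Medians run from 3.49 for infiltrating and border macrophage genes to -0.32 for ion channel genes.

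Lysosomal genes were higher as a broad group but not in all their parts. Of 45 genes, 44 were compared, of which 24 were higher and 0 lower, with a median of 1.19, and 39 lay above zero. Of the proteases, Ctsd was given above (3.24), and Ctsz was at 22.5 FPKM in sham and 125 FPKM at day 7 (2.47). Ctss was at 43.4 and 196 FPKM (2.17) and Ctsl at 31.4 and 118 FPKM (1.91). Enzymes that degrade glycans and lipids were higher as well. Gusb was at 2.78 and 26.7 FPKM (3.22), Hexa at 18.1 and 56.4 FPKM (1.63) and the acid lipase Lipa at 4.80 and 16.7 FPKM (1.78). Grn, the progranulin gene, was at 14.7 and 111 FPKM (2.90). Membrane proteins and subunits of the proton pump were mixed. Atp6ap1, a pump subunit, was at 44.4 FPKM in sham and 103 FPKM at day 7 (1.21), Cd63 at 43.5 and 102 FPKM (1.23), Laptm5 at 11.8 and 44.2 FPKM (1.89) and Lamp2 at 29.6 and 50.9 FPKM (0.78). Lamp1 was at 117 FPKM in sham and 176 FPKM at day 7 (0.58), Psap at 417 and 562 FPKM (0.43), Atp6v1a at 99.3 and 101 FPKM (0.03), Mcoln1 at 15.8 and 12.8 FPKM (-0.31) and Atp6v1h at 73.0 and 57.7 FPKM (-0.34). The pump subunit Atp6v0d2, which is restricted to osteoclasts and macrophages, was not listed in sham and was at 1.36 FPKM at day 7.

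Transcription factors of the TFEB family, which drive lysosomal genes, bind an E-box with the letters CACGTG. These were held by 10 of the 33 lysosomal genes with a RefSeq promoter (30.3%), against 10.1% of all compared genes with one and 6.90% of the higher genes. Of the 10 holders 5 were higher (median 0.93), and of the 23 others 14 were (median 1.20). The promoter of Ctsd is shown because its value had the largest difference in FPKM, with the motif in capitals.
Ctsd, chr7:142387828-142388077 of GRCm38.p6, minus strand: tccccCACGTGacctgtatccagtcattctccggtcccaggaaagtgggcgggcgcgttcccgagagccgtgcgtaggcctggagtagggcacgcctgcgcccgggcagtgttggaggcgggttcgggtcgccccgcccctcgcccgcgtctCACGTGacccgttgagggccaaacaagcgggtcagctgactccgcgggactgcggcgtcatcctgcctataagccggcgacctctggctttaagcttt
The motif occurred at 245 and at 98 bases before the start. No start event was listed within 200 bases of this start in either library, and the Ctsd values were those of its end events. The strongest day 7 start event filed under Ctsd lay 15386 bases away.

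Lipid handling was split between uptake, storage and export on one side and synthesis on the other. Of the 20 compared genes of cholesterol efflux and lipid droplets, 10 were higher and 0 lower (median 1.02, and 0.78 over members listed in both libraries), while of the 20 compared genes of cholesterol synthesis none was higher, 1 was lower (median -0.26) and 18 lay below zero. Abca1, which exports cholesterol to lipoproteins, was at 3.00 FPKM in sham and 16.4 FPKM at day 7 (2.41). Cd36, a fatty acid and lipoprotein receptor, was at 0.452 and 6.70 FPKM (3.62), and Soat1, which esterifies cholesterol for storage, was at 3.02 and 6.78 FPKM (1.14). Abcg1 was at 14.6 and 18.8 FPKM (0.37). On the synthesis side Sqle was at 22.3 and 15.7 FPKM (-0.51) and Mvk, mevalonate kinase, was at 10.04 and 4.65 FPKM (-1.09), the one member past the threshold.

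Among pattern recognition receptors, which sense damage-associated molecules, and the inflammasome and cytokine genes downstream of them, 13 of 15 compared genes were higher and none lower, with a median of 1.64. Tlr2 was at 0.541 FPKM in sham and 4.75 FPKM at day 7 (2.92), Tlr13 at 0.487 and 4.14 FPKM (2.85) and Tlr7 at 0.583 and 2.59 FPKM (1.98). Tlr4 was not listed in sham and was at 0.868 FPKM at day 7, under the filter, and Tlr3 was at 3.03 and 4.24 FPKM (0.47). The adaptor Myd88 was at 1.90 and 4.66 FPKM (1.25). The inflammasome parts Pycard (1.14 and 3.75 FPKM, 1.64), Casp1 (0.437 and 2.76 FPKM, 2.41) and Gsdmd (0.696 and 3.90 FPKM, 2.33) were higher, whereas their sensor Nlrp3 was under 1 FPKM in both libraries. Of the cytokines they release, Il18 was at 8.21 and 7.91 FPKM (-0.05) and Il1b was not listed in either library. Il1a was at 0.0684 and 1.17 FPKM (2.92).

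The annexin, S100 and galectin list, which holds intracellular proteins that become damage signals when released, had 10 of 18 compared genes higher and a median of 1.46. Besides Lgals3, S100a4 was at 0.739 FPKM in sham and 10.001 FPKM at day 7 (3.59), Capg at 1.03 and 12.5 FPKM (3.48), Lgals9 at 2.65 and 13.9 FPKM (2.35), Lgals1 at 12.997 and 54.4 FPKM (2.06) and Anxa2 at 4.14 and 18.2 FPKM (2.11). S100b, the astrocyte member, was at 69.8 and 90.1 FPKM (0.37) and S100a1 at 62.4 and 60.8 FPKM (-0.04). S100a9 was not listed in either library.

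Chemokine genes were higher in 10 of 14 compared, with a median of 2.19 over the list and 1.36 over the members listed in both libraries. Ccl3 and Ccl4, which attract monocytes through the same receptors, were not listed in sham and were at 5.90 and 2.87 FPKM at day 7. Cxcl10, induced by interferon, was not listed in sham and was at 3.42 FPKM. Ccl2, the main attractant of blood monocytes, was not listed in sham and was at 0.594 FPKM, under the filter. The neuronal chemokine Cx3cl1 was at 149.8 FPKM in sham and 126 FPKM at day 7 (-0.25). Growth factors and their binding proteins differed in few members, as 5 of 26 were higher, which were Igf1, Grn, Tgfb1 (2.02 and 9.38 FPKM, 2.16), Fgf2 (1.07 and 2.86 FPKM, 1.34, and 0.48 with events inside the annotated gene alone) and Csf1 (3.98 and 9.96 FPKM, 1.30). Bdnf was at 6.70 and 5.27 FPKM (-0.34) and Vegfa at 21.2 and 18.5 FPKM (-0.19).

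Interferon-stimulated genes were higher in 21 of 25 compared, none lower, with a median of 1.97. Ifi27l2a was at 0.254 FPKM in sham and 13.7 FPKM at day 7 (5.29). The transcription factor Irf7 was at 0.0669 and 3.10 FPKM (4.26). Bst2, which tethers viruses to the cell surface, was at 3.10 and 20.98 FPKM (2.72) and Lgals3bp at 4.97 and 30.1 FPKM (2.57). Oas1a, Trim30a, Dhx58, Zbp1 and Rsad2 were not listed in sham and lay between 1.14 and 2.71 FPKM at day 7. Isg15 and Ifi44 were not listed in either library. The 4 members short of the threshold were Ddx58 (0.91), Ifit2 (0.75), Irf9 (0.73) and Ifih1 (0.17).

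The interferon-stimulated response element has a core of GAAA followed, after any 2 bases, by GAAA again. It was held by 9 of the 18 interferon-stimulated genes with a RefSeq promoter, against 3.16% of all compared genes with one, 6.51% of the higher genes and 2.21% of the lower genes. All 9 holders were higher at day 7, with a median log2 ratio of 2.44, and of the 9 others 5 were, with a median of 1.44. The holders Oas1a, Trim30a and Rsad2 were not listed in sham and passed the filter through day 7 alone. That set their calls in advance, and their ratios depend on the 0.1 FPKM added. The difference between holders and others was not tested. The promoters of Oas1a, an enzyme that senses double-stranded RNA, and Ifit3 are shown with the core in capitals, as each held it in 2 copies and had its strongest day 7 start event within 4 bases of the RefSeq start.
Oas1a, chr5:120907526-120907775 of GRCm38.p6, minus strand: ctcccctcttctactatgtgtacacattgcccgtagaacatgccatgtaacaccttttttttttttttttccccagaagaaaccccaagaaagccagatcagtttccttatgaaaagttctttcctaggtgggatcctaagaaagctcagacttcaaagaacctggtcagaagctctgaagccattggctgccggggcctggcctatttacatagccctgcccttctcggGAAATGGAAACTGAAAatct
Ifit3, chr19:34583279-34583528 of GRCm38.p6, plus strand: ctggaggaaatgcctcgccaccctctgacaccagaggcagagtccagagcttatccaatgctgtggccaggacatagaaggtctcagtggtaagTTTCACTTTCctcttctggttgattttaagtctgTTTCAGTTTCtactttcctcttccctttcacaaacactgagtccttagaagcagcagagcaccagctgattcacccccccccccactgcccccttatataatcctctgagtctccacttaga
The copies began 20 and 14 bases before the start in Oas1a and overlapped, and 156 and 122 bases before it in Ifit3. The start events at these positions were at 2.71 FPKM in Oas1a at day 7, with none listed in sham, and at 3.84 FPKM in sham and 13.8 FPKM at day 7 in Ifit3.

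Antigen presentation genes were also higher, class II in 6 of 6 compared genes (median 2.25) and class I in 7 of 14 (median 1.04). H2-Aa was at 1.16 FPKM in sham and 6.23 FPKM at day 7 (2.33), H2-Ab1 at 0.782 and 4.42 FPKM (2.36) and H2-Eb1 at 0.752 and 5.29 FPKM (2.66). The class I light chain B2m was at 71.1 and 239 FPKM (1.75), H2-D1 at 11.1 and 45.5 FPKM (2.02) and H2-K1 at 9.38 and 20.2 FPKM (1.10). Reads of the H2 genes can be shared between near-identical copies, so the split among them is uncertain. The proteasome supplies the peptides, and of its 35 compared subunits only Psmb8 (1.39 and 6.87 FPKM, 2.22) and Psmb9 (0.537 and 2.53 FPKM, 2.04) were higher, which are catalytic subunits of the immunoproteasome, while the median of the list was -0.02. The immunoproteasome subunit Psmb10 was at 19.3 and 19.1 FPKM (-0.02). Complement genes were higher in 8 of 11, with a median of 1.62. C1qb was at 41.4 and 219 FPKM (2.40) and C1qc at 16.5 and 117 FPKM (2.82), so the 3 chains of C1q differed by similar factors. C3 was not listed in sham and was at 1.12 FPKM at day 7. The inhibitor Cd59a (2.58 and 2.60 FPKM, 0.01) stayed short of the threshold.

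Astrocyte genes divided into those of the reactive state and those of the working cell. Reactive astrocyte genes were higher in 14 of 23 compared (median 1.97, and 1.49 over members listed in both libraries), and homeostatic astrocyte genes in 0 of 20 (median 0.10, range -0.51 to 0.38). In the reactive list Vim was at 15.5 FPKM in sham and 81.5 FPKM at day 7 (2.39), Serpina3n, a secreted protease inhibitor, at 5.30 and 38.8 FPKM (2.85), Cd44 at 0.582 and 4.46 FPKM (2.74) and Timp1 at 0.278 and 5.33 FPKM (3.84). Osmr, the receptor for oncostatin M, was at 0.0306 and 1.47 FPKM (3.59), and Lcn2 was not listed in sham and was at 3.09 FPKM. Stat3 was at 6.95 and 7.21 FPKM (0.05) and Sphk1 at 2.19 and 1.32 FPKM (-0.69). In the homeostatic list Aqp4, the water channel, was at 27.0 and 35.2 FPKM (0.38), the glutamate transporter Slc1a2 at 199.9 and 212 FPKM (0.08) and Glul, glutamine synthetase, at 485 and 491 FPKM (0.02). As a group the reactive list thus stood apart from the homeostatic list, and which cells held the RNA of the reactive genes was not tested.

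Extracellular matrix genes of the fibrotic scar were higher in 22 of 35 compared and lower in none, with a median of 1.24. Of the fibrillar collagens, Col3a1 was at 1.04 FPKM in sham and 21.6 FPKM at day 7 (4.25), Col1a1 at 2.46 and 21.2 FPKM (3.05) and Col1a2 at 6.90 and 31.8 FPKM (2.19). Postn, periostin, was at 0.208 and 3.61 FPKM (3.59), and Lox, the enzyme that crosslinks collagen, was not listed in sham and was at 2.99 FPKM. Of the basement membrane collagens, Col4a1 was at 3.92 and 10.1 FPKM (1.35) and Col4a2 at 4.998 and 9.78 FPKM (0.95). Lama2 (0.19), Pdgfrb (0.42), the pericyte receptor, and Col5a1 (-0.30) were under the threshold. Proteases and their inhibitors were higher in 13 of 24 (median 1.46), and 7 of the 13 were not listed in sham and passed the filter through day 7 alone. Over the members listed in both libraries the median was 0.56. Of these, the macrophage elastase Mmp12 was at 10.5 FPKM at day 7, Adam8 at 6.85 FPKM and Mmp2 at 2.77 FPKM. Mmp14 was at 4.16 and 13.5 FPKM (1.68), and Plau, the urokinase gene, at 0.783 and 7.78 FPKM (3.16). Mmp9 was not listed in sham and was at 0.729 FPKM at day 7, under the filter. The cysteine protease inhibitor Cst3 was at 1035 and 758 FPKM (-0.45).

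Cell cycle genes were higher in 18 of 26 compared, with a median of 1.53, and lower in none. Birc5, survivin, was at 0.0107 FPKM in sham and 3.47 FPKM at day 7 (5.01). Mki67, the gene of the proliferation marker Ki-67, was not listed in sham and was at 2.47 FPKM, with part of that value from events outside the annotated gene, and Ube2c, Aurka, Ccnb2 and Kif20a were also not listed in sham and lay between 1.20 and 2.69 FPKM. Ube2t, a ubiquitin-conjugating enzyme of DNA repair, was at 0.0110 and 1.61 FPKM (3.95). Of the replication genes Mcm2 was at 0.590 and 2.29 FPKM (1.79), Mcm7 at 4.29 and 6.20 FPKM (0.52) and Pcna at 23.4 and 31.4 FPKM (0.42). Cdk1 was under 1 FPKM in both libraries, with 0.656 and 0.760 FPKM.

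The cell cycle homology region, bound by the complex that represses and activates mitotic genes, has the core letters TTTGAA. These were held by 9 of the 21 cell cycle genes with a RefSeq promoter (42.9%), against 12.3% of all compared genes with one, 16.2% of the higher genes and 16.6% of the lower genes. Among the holders 8 of 9 were higher, with a median of 2.24, and among the others 7 of 12, with a median of 1.31. The holders Ube2c, Mki67 and Ccnb2, and Aurka among the others, were not listed in sham and passed the filter through day 7 alone. That set their calls in advance, and their ratios depend on the 0.1 FPKM added. The difference between holders and others was not tested. Top2a, the topoisomerase of dividing cells, and Ube2c, which targets cyclins for destruction, are shown because each held the letters within 30 bases of the start, in capitals.
Top2a, chr11:99024190-99024439 of GRCm38.p6, minus strand: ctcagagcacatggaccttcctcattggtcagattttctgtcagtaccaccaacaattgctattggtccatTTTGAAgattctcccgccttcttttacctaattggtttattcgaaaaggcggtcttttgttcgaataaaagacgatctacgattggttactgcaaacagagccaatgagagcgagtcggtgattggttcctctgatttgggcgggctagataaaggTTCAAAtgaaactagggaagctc
Ube2c, chr2:164769679-164769928 of GRCm38.p6, plus strand: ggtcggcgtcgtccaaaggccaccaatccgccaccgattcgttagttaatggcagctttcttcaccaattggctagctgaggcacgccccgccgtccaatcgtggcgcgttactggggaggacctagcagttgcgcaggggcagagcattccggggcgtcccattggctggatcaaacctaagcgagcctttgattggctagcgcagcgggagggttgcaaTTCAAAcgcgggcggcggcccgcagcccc
In Top2a the letters occurred 179 and 23 bases before the RefSeq start, where start events were at 2.43 FPKM at day 7 and none was listed in sham. The gene was listed in sham through other events, and the log2 ratio of its gene value was 2.24. In Ube2c the letters occurred 29 bases before the RefSeq start. The strongest day 7 start event of Ube2c lay 31 bases before that start, so the letters followed this event. Start events there were at 2.69 FPKM at day 7, and none was listed in sham.

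Most neuronal genes lay below sham by amounts short of the threshold. Of 26 presynaptic genes none was higher and 1 was lower, with a median of -0.28, and 23 lay below zero. Of 26 postsynaptic genes 1 was higher and none lower, with a median of -0.30, and of 33 ion channel genes none was higher and 2 were lower, with a median of -0.32. Snap25, a fusion protein of synaptic vesicles, was at 706 FPKM in sham and 512 FPKM at day 7 (-0.46), Syt1, the calcium sensor of release, at 293 and 199 FPKM (-0.56) and the glutamate transporter Slc17a7 at 303 and 231 FPKM (-0.39). The inhibitory genes Gad1 (70.3 and 67.2 FPKM, -0.06), Gad2 (22.0 and 24.7 FPKM, 0.17) and Slc32a1 (29.6 and 31.6 FPKM, 0.09) were close to sham. Rims1 was at 29.3 and 12.4 FPKM (-1.23), but it was not listed in the day 3, day 14 and day 28 libraries. In the postsynaptic list Nrgn, neurogranin, was at 698 and 449 FPKM (-0.64), Gria2 at 119 and 87.7 FPKM (-0.44) and Dlg4 at 159 and 129.6 FPKM (-0.29). Camk2a went the other way, with 293 and 456 FPKM (0.64), and Grin2a was at 3.28 and 10.8 FPKM (1.69), and between 7.15 and 12.3 FPKM in the other injured libraries that listed it.

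The ion channel genes past the threshold were Scn1a, the sodium channel of fast-spiking interneurons, with 19.7 FPKM in sham and 5.82 FPKM at day 7 (-1.74), and Kcnma1, the calcium-activated potassium channel, with 16.9 and 5.999 FPKM (-1.48). Scn2a was at 40.6 and 22.7 FPKM (-0.84) and Cacna1b at 18.0 and 9.54 FPKM (-0.91). Markers of cortical layers had a median of -0.23, and Cux2, of the upper layers, was the one of 17 past the threshold, with 15.3 and 4.98 FPKM (-1.60). The related gene Cux1 was at 15.5 and 14.4 FPKM (-0.11). Deep-layer genes lay on both sides of zero, with Tle4 at 9.55 and 13.7 FPKM (0.52), Fezf2 at 5.82 and 6.13 FPKM (0.07), Tbr1 at 17.1 and 14.7 FPKM (-0.22) and Bcl11b at 8.68 and 6.37 FPKM (-0.44). Interneuron and neuropeptide genes had none of 15 past the threshold and a median of -0.25, with Pvalb at 47.5 and 33.4 FPKM (-0.51), Npy at 115 and 82.0 FPKM (-0.49) and Cck at 178 and 223 FPKM (0.32). Immediate early genes were higher in 3 of 15, which were Fos (3.74 and 8.79 FPKM, 1.21), Sik1 (0.878 and 2.21 FPKM, 1.24) and Egr2 (0.778 and 1.76 FPKM, 1.08). Of the regeneration genes 4 of 12 were higher, with a median of 0.25 over the list and 0.05 over members listed in both libraries. Of the 4, Atf3, at 4.39 FPKM at day 7, and Gal were not listed in sham. Fgf2, another of them, was at 0.48 with events inside the annotated gene alone. Gap43, the growth cone protein, was at 117 and 129 FPKM (0.15).

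Myelin genes had a median of 0.05, with 1 of 16 higher, Mag (33.8 and 69.0 FPKM, 1.03), and Mbp at 1241 and 1416 FPKM (0.19). Mog, which lies on the outer face of myelin, was at 44.9 and 28.7 FPKM (-0.64). None of 13 oligodendrocyte precursor genes passed the threshold (median 0.25), with the chondroitin sulphate proteoglycan Cspg4 at 1.97 and 3.41 FPKM (0.76) and Cspg5 at 85.2 and 43.9 FPKM (-0.95). Of 16 genes of the endothelial barrier none was higher and 1 was lower (median 0.07), the efflux pump Abcg2 with 7.72 and 3.51 FPKM (-1.12). Activated endothelium was higher in 3 of 9, Glycam1, Icam1 (0.905 and 3.13 FPKM, 1.68) and Angpt2 (0.443 and 1.16 FPKM, 1.21). Of the glycolysis and hypoxia genes 2 of 20 were higher, which were the hexokinases Hk2 (not listed in sham, 2.20 FPKM) and Hk3 (0.218 and 3.14 FPKM, 3.35), while the neuronal and glial hexokinase Hk1 was at 72.7 and 61.3 FPKM (-0.24). Antioxidant and iron genes were higher in 5 of 25, with Hmox1, which degrades heme, at 2.20 and 19.7 FPKM (3.11), Nfe2l2, the regulator of that response, at 5.34 and 11.7 FPKM (1.12), and the ferritin heavy chain Fth1 at 1849 and 2021 FPKM (0.13) beside the light chain Ftl1 at 1.57. Of the heat shock and unfolded protein genes 2 of 16 were higher, Atf3 and Pdia6 (12.8 and 27.2 FPKM, 1.08).

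Ribosomal protein genes had 1 of 61 higher and 2 lower (median 0.23), and respiratory chain genes 1 of 76 higher and 1 lower (median -0.07). Each of these exceptions varied among the 6 libraries. Rplp0 was at 54.1 FPKM in sham and 55.4 FPKM at day 28 but between 173 and 189.7 FPKM in the other 4 libraries, and Atp5e was at 14.8 and 14.3 FPKM against 115 to 179.5 FPKM. The ribosomal gene Rpl7a was not listed at day 7 and lay between 12.7 and 91.6 FPKM in the other libraries. Cox5b was at 114 FPKM in sham and 52.2 FPKM at day 7 (-1.12). Genes with pseudogene copies such as these share reads, so their values are uncertain.

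The tissue label was checked with markers of neighbouring structures. The cortical neuron gene Slc17a7 was strong in both libraries (303 and 231 FPKM), and none of the 8 compared striatal markers passed the threshold (median 0.09), although Ppp1r1b was at 217 FPKM in sham and 134 FPKM at day 7 (-0.69). Their summed level was 428 FPKM in sham and 391 FPKM at day 7, so striatal RNA was in both. Hypothalamic markers differed, since their sum was 2.16 FPKM in sham and 41.4 FPKM at day 7. Avp, vasopressin, was not listed in sham and was at 18.1 FPKM at day 7, Pmch at 7.74 FPKM, Oxt, oxytocin, at 7.46 FPKM, Gal at 2.23 FPKM and Pomc at 1.29 FPKM, and only Trh was listed in both (2.16 and 4.14 FPKM, 0.91). The defining hypothalamic factors Nkx2-1 and Otp were listed in neither. Over the same 6 genes the median log2 ratios to sham were 5.42, 1.52, 5.39, 4.99 and 1.36 in the libraries of days 1, 3, 7, 14 and 28. The 5 genes not listed in sham passed the filter through day 7 alone, so these medians depend on the 0.1 FPKM added. Under other processing settings the day 7 median lay between 0.91 and 8.68. The part of hypothalamic RNA in other differences was not tested. The choroid plexus sum was 405 and 465 FPKM, with 2 of 11 higher, F5 (0.401 and 1.29 FPKM, 1.48) and Slc4a5 (0.439 and 1.14 FPKM, 1.20), and Ttr at 279 and 336 FPKM (0.27). Thalamic markers had 1 of 6 lower, Ramp3 (10.3 and 4.14 FPKM, -1.29), hippocampal markers 1 of 4 higher, Prox1 (not listed in sham, 1.21 FPKM), and ependymal markers none of 6. Erythroid genes were lower in all 3 compared without reaching the threshold (median -0.86, Hbb-bs 117 and 62.0 FPKM), and of skeletal muscle markers only Pvalb was compared, which neurons also express.

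The genes with the lowest ratios came from many pathways. Tug1, a long noncoding RNA on chr11:3639785-3649673 of GRCm38, was at 12.6 FPKM in sham and 0.00346 FPKM at day 7, a log2 ratio of -6.94, and Ablim1, which binds actin, at 13.7 and 0.0783 FPKM (-6.28). Lsm10, of the histone mRNA processing particle, was at 5.94 and 0.506 FPKM (-3.32), the chromatin remodelling subunit Ino80d at 1.56 and 0.107 FPKM (-2.999) and Capns1, the small calpain subunit, at 60.2 and 9.25 FPKM (-2.69). Others among the 20 lowest were Syt14 (-2.62), Tmem200a (-2.42), Ubl4a (-2.33), Lhfpl4, an auxiliary protein of GABA receptors (-2.33), Ptar1 (-2.30), the calcium-binding Sri (-2.24), the oligodendrocyte lineage factor Nkx2-2 (-2.14), Crebl2 (-2.11), the stem cell factor gene Kitl (-2.10) and Ccl21c (-3.20), which has near-identical copies. The other 5 were predicted genes or genes known only by clone names. Of the genes not listed at day 7, Pcdh20 (6.87 FPKM), Hnrnpa3 (6.86 FPKM) and Elfn2 (6.77 FPKM) were listed in the sham library alone of all 6. The largest negative differences in FPKM itself were those of Ppia, cyclophilin A, with 498 and 121 FPKM (-2.04), followed by Cst3, Nrgn, Camk2n1 (566 and 371 FPKM, -0.61), Snap25, Atp1b1 (689 and 532 FPKM, -0.37), Atp6v1g2 (192 and 45.4 FPKM, -2.07), Rpl26 (316 and 171 FPKM, -0.88), Kif5a (564 and 447 FPKM, -0.34) and Nptn (161 and 44.9 FPKM, -1.84).

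Several of these low values belonged to the day 7 library alone. In 26 of the 256 lower genes (10.2%) and in 5 of the 1030 higher genes (0.485%), the other 5 libraries lay within 2 times of each other and day 7 lay more than 2 times outside them all. Tug1 was between 11.5 and 13.3 FPKM in the other 5 libraries, each value taken from a single end event. Capns1 was between 55.2 and 85.4 FPKM elsewhere against 9.25 FPKM, Nptn between 149 and 220.4 FPKM against 44.9 FPKM, and Sri between 16.1 and 19.9 FPKM against 3.80 FPKM. On the higher side Mtch2, a mitochondrial membrane protein, was at 36.8 FPKM against 11.5 to 14.9 FPKM, and the DNA damage kinase Atm at 3.71 FPKM against 1.21 to 1.79 FPKM. What sets these genes apart in 1 library was not tested.

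**Figure D3:**
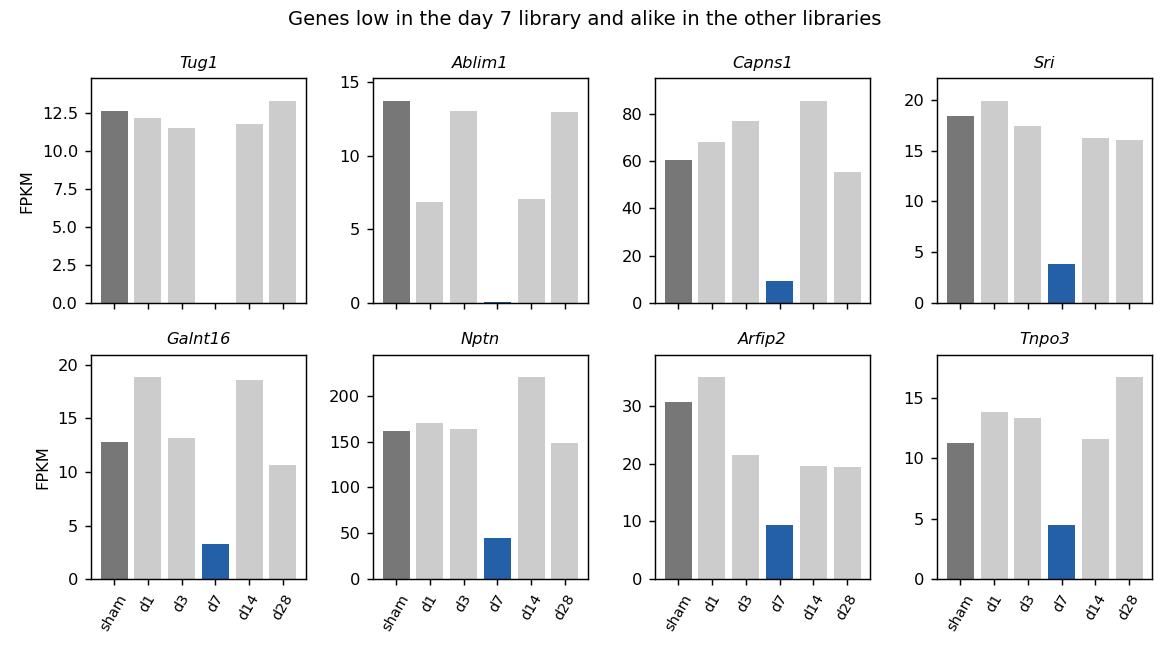
Bars give the FPKM of 8 genes in each of the 6 libraries, with sham in dark grey, day 7 in blue and the other days in light grey, each panel on its own axis from zero. In each gene the day 7 bar lies under all the others, as for Tug1 with 0.00346 FPKM against 11.5 to 13.3 FPKM and Nptn with 44.9 FPKM against 149 to 220.4 FPKM.

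Across all 6 libraries, the highest value lay at day 7 in 559 of the 1030 higher genes (54.3%), and in 186, 180, 60 and 45 of them in the libraries of days 14, 3, 1 and 28. Of the 256 lower genes 127 (49.6%) had their lowest value at day 7. Both sets were chosen by their day 7 value against sham, so these shares favour day 7 from the outset. Among all 12709 genes that reached 1 FPKM in any library, day 7 was the highest in 1817, against 1635 to 3407 for the other 5. It was the lowest in 1403, against 1587 to 2759 for the other 5. In 56 of the 12709 genes day 7 was at least 2 times the next highest library, against 31 to 78 in the other 5. The genes with the largest such ratio and at least 3 FPKM were Tmem237, of the ciliary transition zone, with 7.87 FPKM at day 7 and at most 0.439 FPKM elsewhere (18.0 times), and Lcp1, the leukocyte actin bundler, with 18.8 against at most 2.99 FPKM (6.31 times). The Tmem237 value at day 7 came from an event that was neither a start nor an end, and its end events there summed to 0.347 FPKM. They were followed by Tob2 (5.40 times), Mmp12 (3.50 times), Mov10 (3.45 times), Zfp26 (2.74 times), the collagen receptor Lair1 (2.63 times), Gpnmb (2.50 times), Mtch2 (2.47 times), Spp1 (2.42 times), Cd72 (2.40 times), Igf1 (2.30 times), Lpl (2.29 times), Cd5l (2.21 times) and Cd180 (2.21 times). Sumo2 was at 35.4 FPKM at day 7 and listed in no other library.

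**Figure D4:**
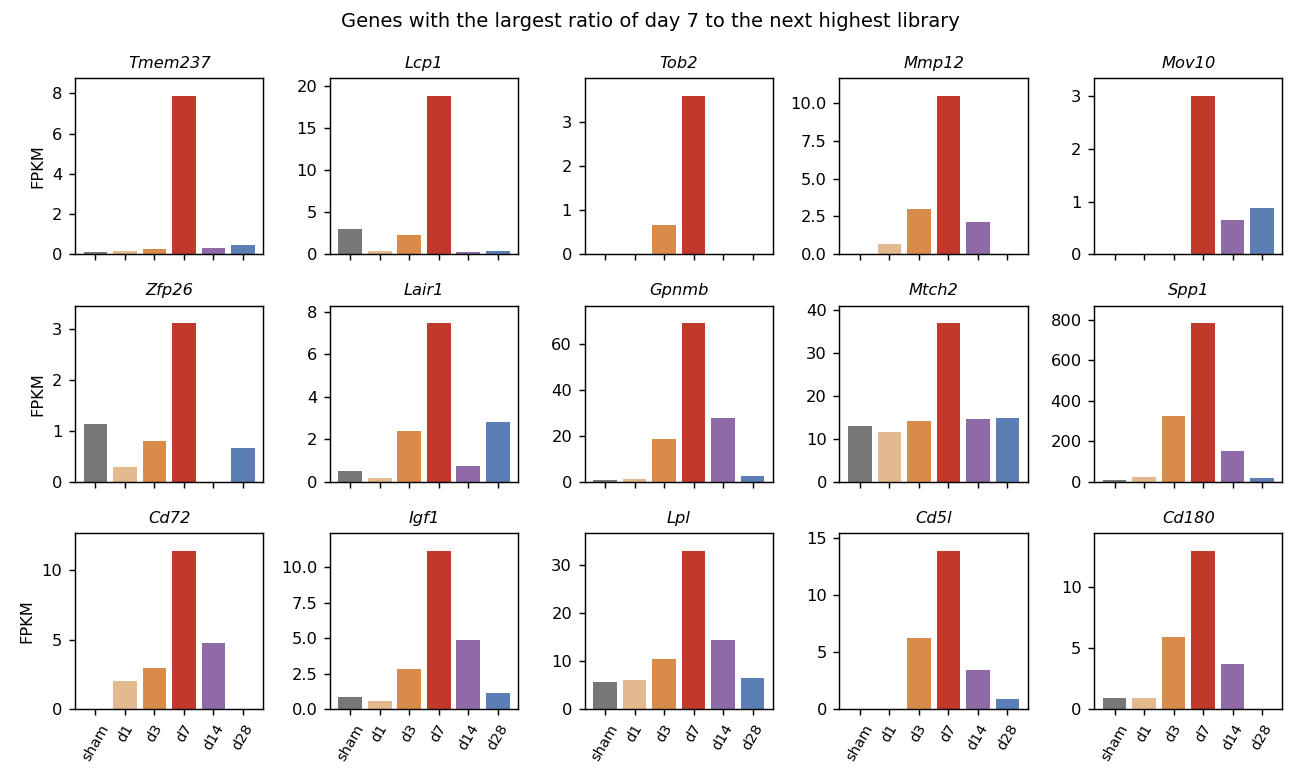
Bars give the FPKM of 15 genes in the sham, day 1, day 3, day 7 (red), day 14 and day 28 libraries, each panel on its own axis from zero. Spp1, Gpnmb, Igf1, Lpl and Cd180 reach 783, 68.9, 11.2, 32.9 and 12.99 FPKM at day 7 with smaller bars at day 3 and day 14, whereas Tmem237, Tob2 and Mtch2 have 1 tall bar, at day 7.

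The lists differed in where day 7 stood between its neighbours, set side by side because all days share the 1 sham library. Only members that reached 1 FPKM in sham or at day 7 enter these medians, which favours day 7 over the other days. Disease-associated microglia genes had medians of 1.63, 2.74 and 2.19 in the day 3, day 7 and day 14 libraries, and 16 of the 20 were higher at day 7 than at day 3. Spp1 was at 323, 783 and 151 FPKM at these 3 days, Gpnmb at 18.6, 68.9 and 27.6 FPKM, and Trem2 at 32.6, 63.2 and 44.4 FPKM, so each had its highest value at day 7. Lysosomal genes had medians of 0.75, 1.19 and 0.69, with day 7 the highest library for 28 of 44. Reactive astrocyte genes went from 2.36 to 1.97 and 1.43, with only 2 of 23 higher at day 7 than at day 3, and Gfap was at 698, 422 and 380.0 FPKM. Cell cycle genes went from 1.87 to 1.53 and 0.28, with 24 of 26 higher at day 7 than at day 14, and Top2a was at 12.8, 4.07 and 1.87 FPKM. Interferon-stimulated genes had medians of 1.06, 1.97 and 2.42, with all 25 above their day 3 values at day 7 and 9 of 25 above their day 14 values. H2-Aa was at 5.47, 6.23 and 11.1 FPKM and Cxcl10 at 1.17, 3.42 and 8.33 FPKM. Fibrotic matrix genes had medians of 1.35, 1.24 and 0.84, with Col1a1 at 15.7, 21.2 and 13.9 FPKM. Presynaptic genes stayed between -0.31 and -0.12 over these days.

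**Figure D5:**
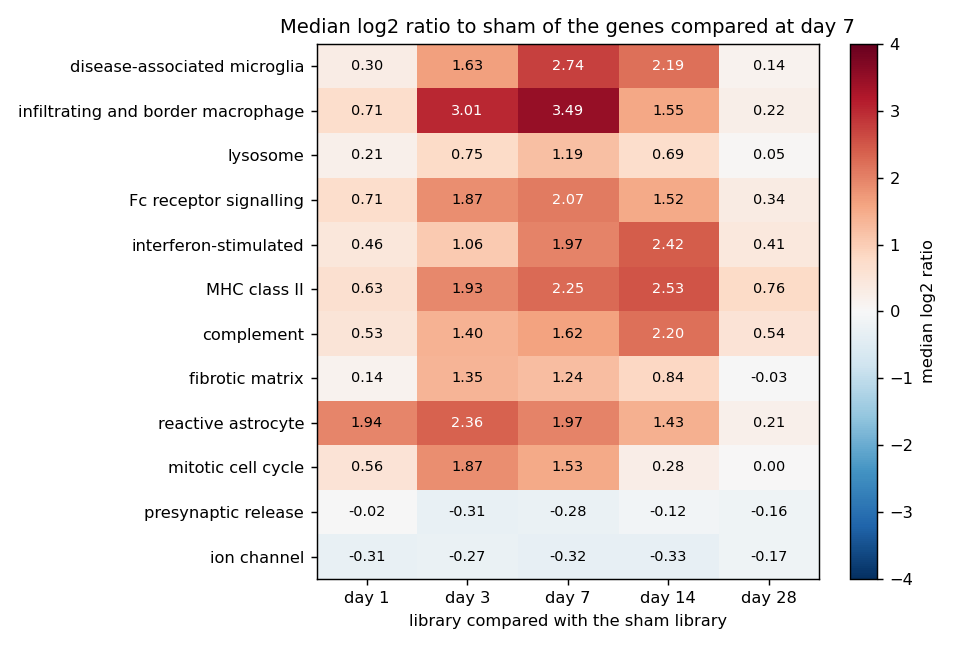
Each cell gives the median log2 ratio of a library (column) to the sham library over the genes of a list (row) that were compared at day 7, in red above zero and blue below. Day 7 holds the highest median of a row for disease-associated microglia (2.74), infiltrating and border macrophage (3.49), lysosome (1.19) and Fc receptor signalling (2.07), day 3 for reactive astrocyte (2.36) and mitotic cell cycle (1.87), and day 14 for interferon-stimulated (2.42), MHC class II (2.53) and complement (2.20). Genes that reach 1 FPKM only on other days, such as Ly6c2 and Plac8 of the macrophage list, are left out, which favours day 7. In that list 6 of 11 members were above their day 3 values at day 7, with a median log2 ratio of day 7 to day 3 of 0.02.

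The values rest on transcript start, transcript end and other splicing events, and the kind of event bears on these ratios. In the sham library 77.1% of the compared values were those of start events, 18.1% of end events and 4.77% of other events, and at day 7 these shares were 78.2%, 17.6% and 4.23%. Of the 11830 genes listed in both libraries, 10332 (87.3%) took both values from the same kind of event, and of these 6.75% were higher and 1.65% lower, against 9.41% and 2.60% of the 1498 others. Fcgr3, Stab1, S100b, Cst3, Cxcl14, Slc7a11, Ubl4a, Sri, Camk2n1 and Rpl26 changed direction when start events alone or end events alone were summed. For Cst3 and Sri that reversal rests on the 0.1 FPKM added, since sham listed no start event of Cst3 and no end event of Sri. The calls of Ctsd (0.33) and Zfp26 (0.31) were lost with start events alone, and those of Soat1 (0.86), Mvk (-0.93) and Abcg2 (-0.64) with end events alone. For Igf1, 4 start events were listed at day 7, the strongest with 40.8% of their sum, against 2 in sham with 80.9% in the stronger. Events were filed under the identifier of a neighbour for some genes. When events were assigned by position instead, 489 genes without a value of their own gained one, 45 of them higher and 21 lower. Among these, C4b, a complement component whose events carried the identifier of Stk19, was at 3.52 FPKM in sham and 17.1 FPKM at day 7 (2.25), Cd74, the class II invariant chain, at 2.12 and 9.34 FPKM (2.09) and S100a6 at 15.2 and 34.2 FPKM (1.16). Ackr1, the venular chemokine receptor, had no value in sham and 7.13 FPKM at day 7, from events that carried the identifier of Cadm3. By position it was at 0.223 FPKM at day 1 and had no value at days 3, 14 and 28. Which of the 2 genes this RNA came from was not tested. Pdgfra was at 10.8 and 10.6 FPKM (-0.02) and Hif1a at 9.94 and 11.9 FPKM (0.26).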

How the data were processed

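Each library held poly(A) RNA from 3 pooled mice, prepared with a strand-specific kit and sequenced as 150-base pairs to an average of 33.6 M reads per sample per the labels. The submitters' processing notes name Trimmomatic 0.30, HISAT2 2.0.1, HTSeq 0.6.1 and mm10. The authors deposited a table of splicing events per library (transcript starts, transcript ends, skipped exons and others) with an FPKM value for each event. These are not counts, so the depth behind a value is unknown, and with 1 library per group neither an error nor a test is possible.

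The value of a gene was the largest of its summed start FPKM, its summed end FPKM and any single event. Genes with at least 1 FPKM in sham or day 7 were compared as log2((day 7 + 0.1)/(sham + 0.1)) and called at 1 or -1. A gene with no event in a library is described as not listed and got no fold. Gene positions are those of the GRCm38 annotation. Named genes were, first, the 20 highest and 20 lowest ratios among genes listed in both libraries, the 10 strongest among those listed in 1 of the 2 and the 10 largest differences in FPKM each way. To these were added the leading, lowest and strongest members of each list with members whose absence bears on a count, and the 15 genes with day 7 furthest above the next library among those with at least 3 FPKM. All but the list members needed 0.9 of their value from events inside the annotated gene, and predicted genes were counted without being named. The members and lists were chosen with earlier results of these data known. Python 3.11.15, numpy 2.4.6 and pandas 2.3.3 were used, and the scripts were tested on simulated data. The alternatives were other pseudocounts, filters, thresholds, event choices, scalings, a length correction, assignment by position and leaving out genes. Some genes are not reported here.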

Additional observations from a re-analysis of the deposited data

Results flagged for a closer look

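Events filed under no Ensembl identifier were left out of the comparisons above. Grouped by locus, 133 such loci reached 1 FPKM in sham or at day 7, and 17 of them were higher at day 7 than in sham and 26 were lower by the same threshold. These loci carry no gene name here and were not analysed further.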

How the results depend on the processing

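The numbers of genes called higher and lower, 1030 and 256, became 659 and 147 with a pseudocount of 1 FPKM, 2003 and 657 with no filter, 361 and 108 with a filter of 5 FPKM, and 418 and 73 at a log2 threshold of 2. Under the other 14 alternatives they lay between 830 and 1138 and between 195 and 373. Higher genes made up 75.3% to 85.1% of the calls throughout. Assignment by position (965 and 218), leaving out genes with events outside their span (965 and 225) and leaving out genes that stood alone at day 7 (1025 and 230) were chosen after seeing the data. With 1 FPKM added, the calls of Tmem200a, Nkx2-2, Zfp26, Trbc2, Syk, Soat1, Mvk, Myd88, Fgf2, Sik1, Egr2, Abcg2, Angpt2, F5 and Slc4a5 were lost. Ctsd was at 0.33 with start events alone and 0.01 with events assigned by position. Some single genes changed direction. With start events alone the log2 ratio was 0.10 for Ubl4a, 11.94 for Cst3, -4.19 for Stab1, -5.89 for Fcgr3, 1.54 for Cxcl14, -8.38 for S100b, 1.47 for Pfkp, -3.84 for Slc7a11 and 4.78 for Atp5d. With end events alone it was 3.98 for Sri, 8.71 for Camk2n1, 10.34 for Rpl26, 1.11 for Tapbp, -1.88 for Psme2, -1.34 for Gaa, 1.86 for Pfkl and -2.59 for Ldha. With events inside the span, or assigned by position, Cox7b was at 2.79. These settings use other events of the same genes, and the cause was not tested further. No paired analysis was possible because each group was 1 pooled library. The depth of the libraries is unknown, so low values carry an error that could not be given.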
